A study of Homo sapiens with 60 samples.

Results

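The epidermal growth factor receptor (EGFR), 4 of its ligands (HBEGF, EREG, AREG and TGFA), its cytoplasmic inhibitor ERRFI1 and the ligand-shedding protease ADAM17 were followed across a panel of herbal water extracts. These 7 genes were picked by name and role among the 60675 genes counted. 6 of them passed the filter on low counts and were tested among 17516 genes, and AREG did not pass. EGFR is a receptor tyrosine kinase that dimerises when a ligand binds and starts the RAS to ERK cascade. Its ligands are made as membrane-bound precursors, and most of them are released when a metalloprotease, mainly ADAM17, cuts them from the cell surface. HBEGF, TGFA, EREG and AREG are also transcribed downstream of the receptor, and ERRFI1 is a feedback inhibitor that binds the kinase domain and lowers its activity. In astrocytic tumours EGFR is among the genes most often amplified or mutated.

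RNA had been sequenced from SW1783, an established human astrocytoma line, after 24 h with a water extract or with vehicle. The extracts were Cinnamomi Cortex (Cinnamon below), Sagunja-tang, Samul-tang, Astragali Radix (Astragalus), Rehmanniae Radix Preparata (Rehmannia), Cnidii Rhizoma (Cnidium), Angelicae Gigantis Radix (Angelica) and Paeoniae Radix (Paeonia). Sagunja-tang and Samul-tang are multi-herb formulas of Korean medicine, the second made from Angelica, Cnidium, Paeonia and Rehmannia, and each extract was given at 20, 100 and 500 µg/mL, the low, medium and high dose. There were 3 libraries at each dose of Cinnamon, Astragalus, Rehmannia, Cnidium and Sagunja, 2 at each dose of Samul, 1 at each dose of Angelica and Paeonia, and 3 of vehicle. The vehicle samples are labelled 0.1% DMSO, whereas the series description gives 2%, and no DMSO level is given for the extract samples. All sample titles, of vehicle and extracts alike, begin with BatchB, but the sample codes of the vehicle form a set apart from those of the extracts. A difference between an extract and vehicle therefore cannot be told apart from a difference between sets or solvents, while a high against a low dose of 1 extract lies within a set. The labels do not say whether replicates were separate cultures, so the p-values measure only the spread between these libraries.

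Library totals ran from 20604748 to 29609771 counts. 1 library stood apart, the first of the 3 at the low dose of Sagunja, called Sagunja low replicate 1 below. In it 19.6% of 11160 well-detected genes lay over 2-fold from its fellow replicates, and the SD of its log2 deviations was 0.798, against at most 0.238 in any library outside its group. Across genes, which are not independent, its deviation ran against exon length (Spearman rho -0.50). Libraries of other groups had rho from -0.45 (Sagunja high replicate 2) to 0.40 (Sagunja medium replicate 3), so such a dependence was not particular to it. All groups share 1 estimate of the spread, so this library also widens the errors of comparisons it is not part of. Results of the 6 tested members are given with and without it where it changes them, and those of other pathway genes only with it. Of 10 astrocyte markers, 6 reached a mean of 0.1 CPM (counts per 1000000 library counts), with VIM at 4658 to 5990 CPM, while GFAP, AQP4, ALDH1L1 and FABP7 lay below 0.1 CPM. All 8 fibroblast and smooth muscle markers were present, and EPCAM, CDH1 and KRT5 of the 6 epithelial markers lay below 0.1 CPM.

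Per kilobase of exon, EGFR was the most abundant of the 7 transcripts in vehicle cells at 27.2 CPM per kb. HBEGF followed at 14.3, ERRFI1 at 12.9 (12.85 before rounding), ADAM17 at 4.54, TGFA at 2.71 and EREG at 0.242 CPM per kb. Exon length was the union of all annotated exons of a gene, so these values and their order depend on the annotation. On GRCh38 with GENCODE release 29, EGFR (ENSG00000146648) lies on chromosome 7 from 55019021 to 55211628 on the plus strand. HBEGF (ENSG00000113070) lies on chromosome 5 from 140332843 to 140346631 on the minus strand. EREG (ENSG00000124882) and AREG (ENSG00000109321) lie near each other on the plus strand of chromosome 4, from 74365143 to 74388751 and from 74445134 to 74455009. TGFA (ENSG00000163235) spans 70447280 to 70554193 and ADAM17 (ENSG00000151694) spans 9488486 to 9556732, both on the minus strand of chromosome 2. ERRFI1 (ENSG00000116285) lies on the minus strand of chromosome 1 from 8004404 to 8026308.

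The promoters of the 3 ligands whose transcripts were higher at the high than at the low dose of Sagunja are shown, as RefSeq gives them for GRCh38.p14, from 250 bases before to 50 bases after the transcription start. Capitals mark matches on either strand, in HBEGF and TGFA to the GC box, whose letters are GGGCGG, in TGFA also to the NF-kB consensus. In EREG they mark a match to the TATA box, whose letters are TATAAA. The AP-1 letters TGANTCA and those of the cAMP response element, TGACGTCA, were searched on both strands too and are in none of the 3 windows.
HBEGF, chr5:140346554-140346853, minus strand: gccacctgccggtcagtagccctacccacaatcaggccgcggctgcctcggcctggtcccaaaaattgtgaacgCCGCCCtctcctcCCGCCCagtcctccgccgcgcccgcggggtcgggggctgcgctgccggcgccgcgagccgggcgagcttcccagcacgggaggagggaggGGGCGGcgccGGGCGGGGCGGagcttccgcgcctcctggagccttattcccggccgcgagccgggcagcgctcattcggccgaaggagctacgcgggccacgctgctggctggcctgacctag
EREG, chr4:74364895-74365194, plus strand: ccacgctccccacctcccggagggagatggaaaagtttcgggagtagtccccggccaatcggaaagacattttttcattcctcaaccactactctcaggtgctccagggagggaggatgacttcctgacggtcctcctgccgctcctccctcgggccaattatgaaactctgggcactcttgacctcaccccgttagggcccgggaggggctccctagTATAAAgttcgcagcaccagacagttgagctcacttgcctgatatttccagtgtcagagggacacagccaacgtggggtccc
TGFA, chr2:70553777-70554076, minus strand: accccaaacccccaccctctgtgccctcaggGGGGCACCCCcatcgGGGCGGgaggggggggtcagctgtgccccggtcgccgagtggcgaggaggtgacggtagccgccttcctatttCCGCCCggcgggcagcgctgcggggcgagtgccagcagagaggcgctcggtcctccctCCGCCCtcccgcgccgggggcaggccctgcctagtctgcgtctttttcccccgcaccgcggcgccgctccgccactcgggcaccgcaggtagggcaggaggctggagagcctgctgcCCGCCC
The HBEGF window holds 5 GC boxes, 1 pair of which overlaps, and no TATA box. The EREG window holds 1 TATA box, whose first base lies at -32 from the start, and no GC box. The TGFA window shown holds 4 GC boxes and 1 NF-kB match at -219. RefSeq gives another TGFA window, chr2:70553397-70553696 on the minus strand, which holds no match to any of the motifs searched. Among 35116 promoter windows of the same length, 45% held a GC box, 11.5% a TATA box, 11.3% an NF-kB match, 7.71% an AP-1 match and 1.85% a cAMP response element. Such matches describe letters and are not evidence of binding. The AREG window differs from the other ligands in holding a cAMP response element, at -65.

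Each of 19 groups with at least 2 libraries entered 1 fit, and a gene was called at an adjusted p under 0.05 (edgeR quasi-likelihood test, Benjamini-Hochberg adjustment over all 17516 genes). Against vehicle, 20 of the 108 tests of the 6 genes were called, 16 of them for HBEGF, 3 for EREG and 1 for EGFR. For Cinnamon high 2 of 6 genes were called (22.8% of all tested genes), for Sagunja low 2 (22.1%), for Rehmannia high 2 (2.37%) and for Sagunja high 1 (17.1%). For every other group but Sagunja medium exactly 1 gene was called, HBEGF. The background there was 1.06% and 2.29% for Cinnamon low and medium, 3.67%, 3.94% and 4.45% for Astragalus low, medium and high, 0.993% and 0.714% for Rehmannia low and medium, 0.383%, 0.297% and 1.35% for Cnidium low, medium and high, and 2.62%, 1.75% and 4.13% for Samul low, medium and high. For Sagunja medium (6.32%) edgeR and DESeq2 each called 0 of the 6, and 1 (EREG) had an unadjusted p under 0.05. Without Sagunja low replicate 1, 32 of the 108 tests against vehicle were called, with a higher background as well. For Cinnamon low, medium and high 1, 1 and 4 genes were called then (5.45%, 7.43% and 35.9% of all genes), and for Sagunja low, medium and high 1, 0 and 2 (11.4%, 17.6% and 30.9%). For Astragalus they were 2, 4 and 3 (14.1%, 13.9% and 12.7%), for Rehmannia 2, 1 and 2 (3.64%, 2.93% and 7.65%), for Cnidium 2, 1 and 2 (1.79%, 1.37% and 5.57%) and for Samul 1, 1 and 2 (13.2%, 11.3% and 13.4%).

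**Figure D1:**
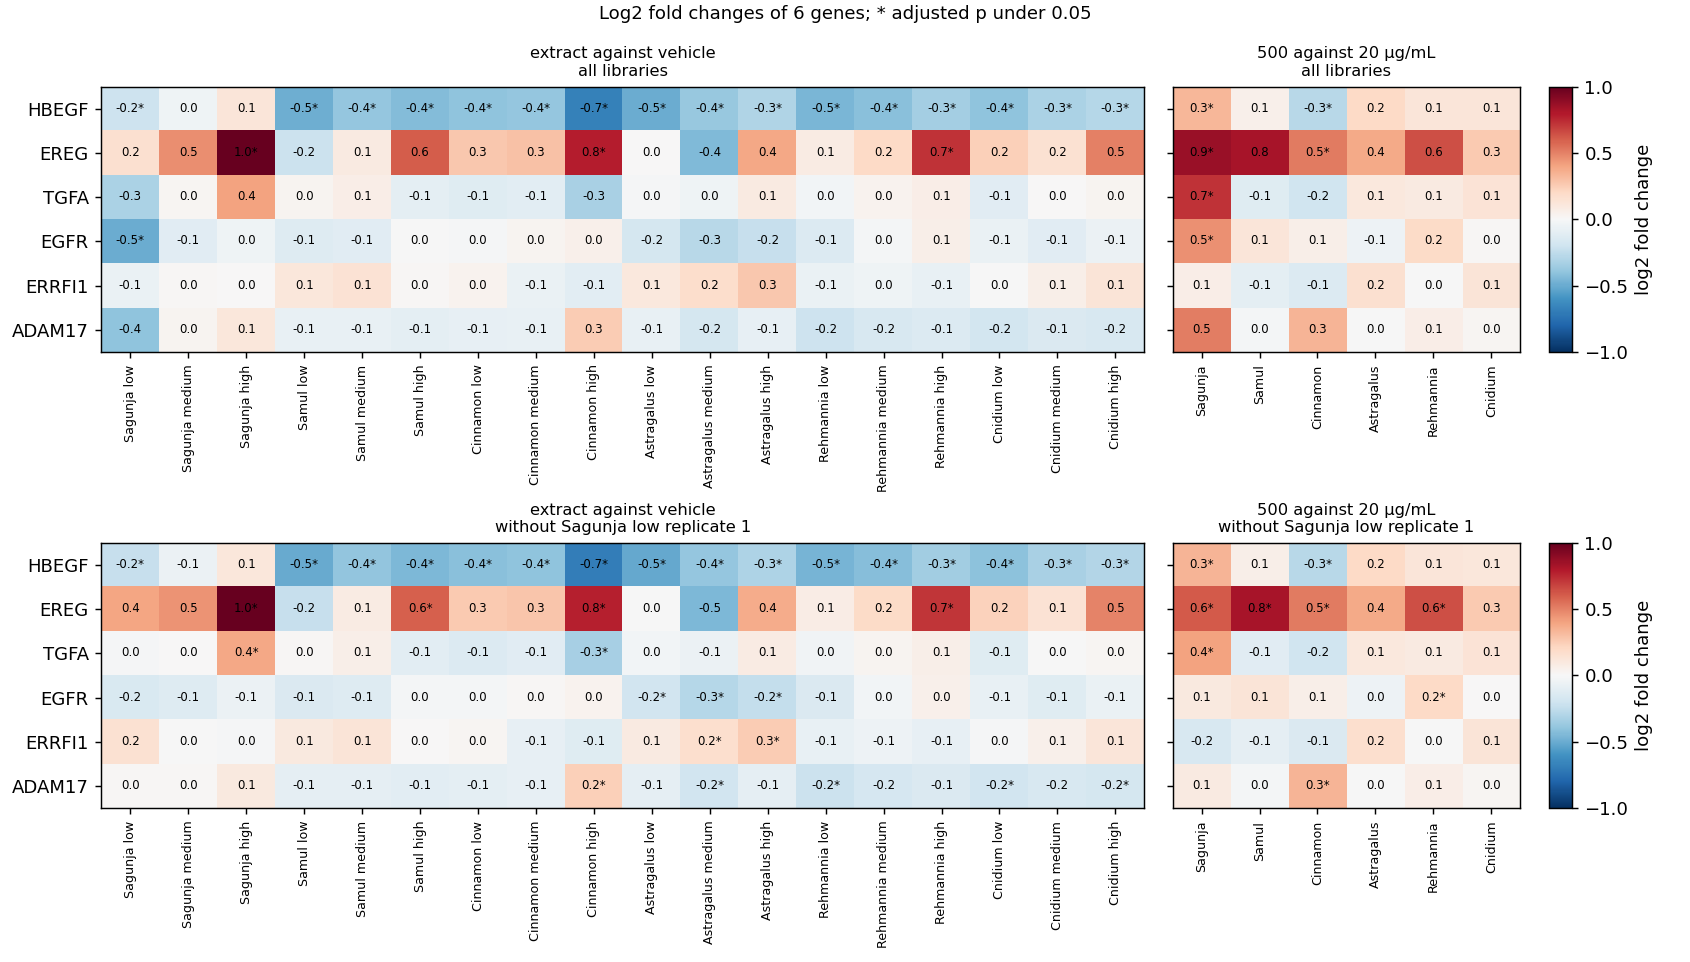
Log2 fold changes of the 6 tested genes (rows) for 18 extract groups against vehicle (left) and for 500 against 20 µg/mL of 6 extracts (right), with all libraries above and without Sagunja low replicate 1 below; colour and number give the value and an asterisk an adjusted p under 0.05. HBEGF is blue in every column against vehicle but Sagunja medium (-0.04) and Sagunja high (0.12), and EREG is reddest for Sagunja high (1.02) and Cinnamon high (0.79).

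HBEGF encodes heparin-binding EGF-like growth factor, a ligand of EGFR and ERBB4 that also acts on neighbouring cells while still anchored in the membrane. In the 48 libraries of the extracts other than Sagunja it had 25.4 to 37.1 CPM (median 32.7), below all 3 vehicle libraries, which had 43.0, 44.2 and 42.1 CPM (42.95 in the first). Cinnamon was the extract with the lowest HBEGF at the high dose, with 31.1, 32.3 and 34.3 CPM at the low, 31.7, 33.5 and 33.5 at the medium, and 25.4, 26.3 and 29.01 CPM at the high dose. Its high-dose libraries overlap with none of the vehicle or of the lower doses. Of all tested genes, 46.9% did not overlap between Cinnamon high and vehicle, and 41.6% between Cinnamon high and low. The fold change of Cinnamon high over vehicle was -0.68 ± 0.06 on the log2 scale (SE, adjusted p = 2.73e-12), with -0.39 at the medium and -0.40 at the low dose.

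Unlike in Cinnamon, HBEGF rose with dose in Sagunja, as its group means also did in Astragalus, Rehmannia and Cnidium. In Sagunja it had 37.9, 39.3 and 34.8 CPM at the low, 42.0, 41.0 and 42.5 at the medium, and 44.5, 49.0 and 47.3 CPM at the high dose (44.45 in the first library). The low dose lay below vehicle (log2 fold change -0.21 ± 0.06, adjusted p = 0.0104), the medium dose overlapped with it (-0.04, 95% interval -0.15 to 0.07), and all 3 high-dose libraries lay above it. That last difference did not pass the test (0.12 ± 0.06, adjusted p = 0.137, 95% interval 0.01 to 0.24), though it did with library size alone as the scaling (adjusted p = 0.0411). Between Sagunja high and vehicle, 47.2% of all tested genes did not overlap. The lower HBEGF at the low dose was also called without Sagunja low replicate 1 (-0.23, adjusted p = 0.00944), a library that did not stand apart for this gene. It was lost with no filter on low counts, and with Sagunja low and vehicle alone in the fit (adjusted p = 0.747).

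HBEGF was also lower than in vehicle at every dose of the other 4 extracts with replicates. The log2 fold changes over vehicle, for low, medium and high dose, were -0.50, -0.38 and -0.30 for Astragalus, -0.46, -0.42 and -0.34 for Rehmannia, -0.40, -0.32 and -0.28 for Cnidium, and -0.49, -0.38 and -0.44 for Samul. In these 12 groups the adjusted p lay between 3.7e-07 and 0.00455, and no extract library overlapped with vehicle. Of all tested genes, 22% (Cnidium low) to 51.1% (Samul low) did not overlap with vehicle in these comparisons. The call was lost for Cnidium medium without vehicle replicate 2 (adjusted p = 0.0552) and for Samul medium without its replicate 1 (adjusted p = 0.111). With no filter on low counts it was lost for Astragalus high (0.074), Cnidium high (0.223) and Cnidium medium (0.194 as adjusted p). The single libraries of Angelica (34.9, 30.6 and 34.0 CPM at the low, medium and high dose) and Paeonia (32.4, 35.7 and 30.3 CPM) lay in the same range. Even at 20 µg/mL the 6 extracts had log2 fold changes of -0.50 to -0.21.

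**Figure D2:**
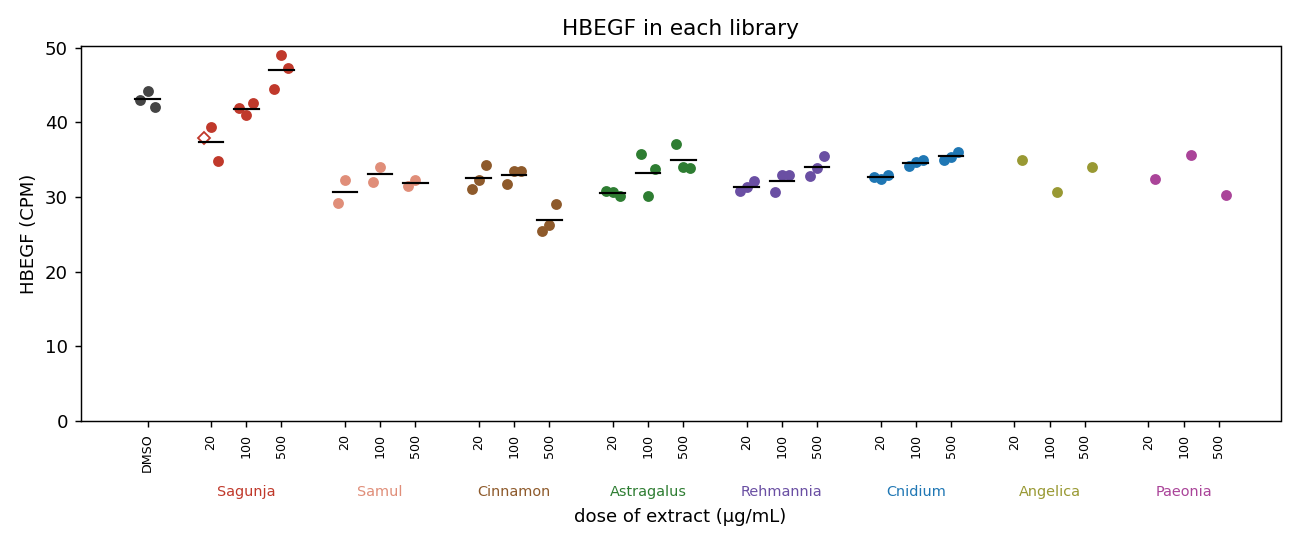
HBEGF in CPM (linear axis) in each of 60 libraries by group, with doses from low to high within each extract; points are libraries, bars the group mean, and the open diamond is Sagunja low replicate 1. Sagunja rises with dose to 46.9 CPM at 500 µg/mL, Cinnamon high is lowest at 26.9 CPM, and vehicle stands at 43.1 CPM.

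Within a set, the high dose differed from the low dose for 2 extracts, in opposite directions. HBEGF was lower at the high than at the low dose of Cinnamon (log2 fold change -0.28 ± 0.06, adjusted p = 0.000441) and higher at the high than at the low dose of Sagunja (0.33 ± 0.06, adjusted p = 8.26e-05). The Cinnamon call was lost with no filter on low counts (adjusted p = 0.0518). With only the 2 Sagunja groups in the fit, of which the low dose holds the library that stood apart, the Sagunja calls for HBEGF (adjusted p = 0.768), EREG and TGFA were lost. At the high dose, Cinnamon averaged 26.9 ± 1.87 CPM and Astragalus, of the same set, 34.97 ± 1.81 CPM (SD, n = 3 each), a log2 difference of -0.38 ± 0.06 (adjusted p = 2.19e-06). Sagunja averaged 46.9 ± 2.32 CPM (SD, n = 3) and Samul 31.8 ± 0.609 CPM (SD, n = 2) at the high dose, a log2 difference of 0.56 ± 0.065 (adjusted p = 1.97e-08). The dose effect itself (high over low) differed between Cinnamon and Astragalus by -0.47 ± 0.08 log2 units (adjusted p = 4.88e-05), and the test of Sagunja minus Samul gave 0.28 ± 0.09 (adjusted p = 0.0894). With the groups ordered by mean HBEGF, 15 of 18 neighbouring pairs overlapped. The gaps lay between Sagunja high and vehicle, between Sagunja medium and Sagunja low, and between Astragalus low and Cinnamon high. Ordering by mean puts groups of like level side by side, so most neighbours overlap for that reason alone. The share over all genes was not counted. Such counts, here and for the genes below, describe the order of groups only.

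For these within-set comparisons, Sagunja high over low called 4 of the 6 genes (20.5% of all genes), Cinnamon high over low 2 (21.6%), Cinnamon over Astragalus at the high dose 3 (27.6%), Sagunja over Samul 1 (8.36%) and the difference of the Cinnamon and Astragalus dose effects 1 (14.4%). For high over low of Astragalus (0.28%), Rehmannia (0.805%), Cnidium (0.228%) and Samul (0.736%), both edgeR and DESeq2 called 0 of 6. There 1 gene for Astragalus (HBEGF), 2 for Rehmannia (HBEGF and EREG), 1 for Cnidium (HBEGF) and 1 for Samul (EREG) had an unadjusted p under 0.05. For Cnidium over Rehmannia at the high dose (0.263%) and the difference of their dose effects (0.04%), edgeR and DESeq2 called 0, with 0 of 6 at an unadjusted p under 0.05. For Sagunja minus Samul dose effects (2.89%) edgeR called 0, DESeq2 called 1, and 2 (HBEGF and TGFA) had an unadjusted p under 0.05. Between medium and low dose, edgeR called 0 of 36 tests, DESeq2 1, and 6 had an unadjusted p under 0.05. There 0.12% of all genes were called for Cinnamon, 9.09% for Sagunja, 0.0114% for Rehmannia and 0% for Astragalus, Cnidium and Samul. Without Sagunja low replicate 1, high over low called 3 of the 6 for Cinnamon (35.9% of all genes), 3 for Sagunja (6.49%), 2 for Rehmannia (3.51%), 1 for Samul (1.92%), and 0 by edgeR for Astragalus (1.16%) and Cnidium (0.957%). In that fit Cinnamon over Astragalus called 5 (41.3%), Sagunja over Samul 3 (17.6%), and the differences of dose effects 3 for Cinnamon minus Astragalus (27.8%) and 1 for Sagunja minus Samul (3.06%).

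Summed levels of cell type markers moved with the Cinnamon and Sagunja high doses, but the sums follow few genes. Over all libraries, most of the epithelial sum was KRT18 (73.37 to 336.5 CPM) and most of the astrocyte sum VIM (4658 to 5990 CPM). COL1A1 (2582 to 4115 CPM) and COL1A2 (1190 to 2045 CPM) made up most of the fibroblast and smooth muscle sum. The summed level of the 6 epithelial markers (KRT8, KRT18 and KRT14 detected) was 86.3 to 91.8 CPM in Cinnamon high (91.75 in its highest library), 115 to 124 CPM in Sagunja high (114.9 to 123.9) and 242.5 to 245.1 CPM in vehicle. The 8 fibroblast and smooth muscle markers summed to 4671 to 5388 CPM in Cinnamon high, 5131 to 5159 CPM in Sagunja high and 6912 to 6958 CPM in vehicle. The 10 astrocyte markers summed to 5550 to 5939 CPM in Cinnamon high, 5080 to 5455 CPM in Sagunja high and 6021 to 6245 CPM in vehicle. The 6 myeloid markers, nearly all of it CD68 and with AIF1 below 0.1 CPM, summed to 204.8 to 236.9 CPM in Cinnamon high, 166.8 to 178.4 CPM in Sagunja high and 165.3 to 177.3 CPM in vehicle, higher in Cinnamon high with no overlap. The 6 neuron and oligodendrocyte markers summed to 25.44 to 25.97 CPM in Cinnamon high, 29.58 to 31.03 CPM in Sagunja high and 25.48 to 28.41 CPM in vehicle, while the 4 endothelial markers overlapped with vehicle in both groups. In RNA from a whole culture, fewer cells of a kind and less RNA per cell cannot be told apart, and the part of these shifts in the HBEGF, EREG and TGFA values was not tested.

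EREG encodes epiregulin, a low-affinity ligand of EGFR and ERBB4. It was the rarest of the tested members, with 81 counts in its highest library. Its group mean was above that of vehicle in 18 of 24 extract groups, and the highest levels were in high-dose groups. Sagunja high had 3.01, 2.18 and 3.24 CPM, Cinnamon high 2.17, 2.41 and 2.62 CPM (2.405 in the second), and Rehmannia high 2.37, 2.29 and 2.20 CPM. Vehicle had 1.297, 1.28 and 1.58 CPM, and none of the 3 high-dose groups overlapped with it. Of all tested genes, 47.2%, 46.9% and 31.3% did not overlap with vehicle in Sagunja, Cinnamon and Rehmannia high.

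EREG rose against vehicle in these 3 groups. The log2 fold change was 1.02 ± 0.19 for Sagunja high (adjusted p = 0.000138), 0.79 ± 0.19 for Cinnamon high (adjusted p = 0.00224) and 0.72 ± 0.19 for Rehmannia high (adjusted p = 0.0326). The Rehmannia call was lost without vehicle replicate 1 or 2 or any 1 of the 3 Rehmannia high libraries (adjusted p up to 0.143). Samul high, with 2.13 and 2.09 CPM, had a log2 fold change of 0.61 that missed the threshold with all libraries (adjusted p = 0.103) and passed it without Sagunja low replicate 1 (0.60, adjusted p = 0.0322). Cnidium high (1.89, 1.94 and 2.05 CPM) and Astragalus high (1.47, 2.14 and 1.82 CPM) had 0.50 (adjusted p = 0.2735) and 0.38 (adjusted p = 0.355).

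Between doses of 1 extract, EREG was higher at the high than at the low dose of Sagunja (log2 fold change 0.86 ± 0.19, adjusted p = 0.00181) and of Cinnamon (0.52 ± 0.19, adjusted p = 0.0436). Sagunja low had 0.883, 1.95 and 1.72 CPM (0.8826 in replicate 1, the library that stood apart), and the Sagunja value was 0.62 without it (adjusted p = 0.0345). Cinnamon low had 1.82, 1.52 and 1.67 CPM, and its call held in 44 of 54 fits that each left out 1 library. It was lost without any 1 Cinnamon low library, Cinnamon high replicate 2 or 3, either Samul high or Samul medium library, or Samul low replicate 2 (adjusted p up to 0.146). It was also lost with DESeq2 (adjusted p = 0.0564), with the replicate block within a set (0.0568), with library size alone (0.0508) and with no filter (0.16). High over low gave 0.82 for Samul and 0.64 for Rehmannia, neither of them called with all libraries and both called without Sagunja low replicate 1 (0.83, adjusted p = 0.0342, and 0.64, adjusted p = 0.0242). The single Paeonia libraries had 1.15, 1.58 and 2.49 CPM at the low, medium and high dose (1.145 at the low dose), and those of Angelica 0.976, 1.33 and 1.38 CPM. Neither difference between dose effects with Sagunja or Cinnamon in it was called for EREG (0.04 for Sagunja minus Samul and 0.14 for Cinnamon minus Astragalus). With the groups in order of EREG level, 16 of 18 neighbouring pairs overlapped.

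TGFA encodes transforming growth factor alpha, a high-affinity EGFR ligand that astrocytic tumours often make. Sagunja high stood above every other library with 17.9, 18.4 and 17.0 CPM (16.96), and vehicle had 12.7, 13.6 and 14.0 CPM. Of all tested genes, 47.2% did not overlap between Sagunja high and vehicle. How many genes set Sagunja high apart from every other library was not counted. The log2 fold change of Sagunja high over vehicle was 0.40 ± 0.15 and missed the threshold with all libraries (adjusted p = 0.0667), but passed it without Sagunja low replicate 1 (0.39 ± 0.08, adjusted p = 0.000317). Against its own low dose the value was 0.72 ± 0.16 (adjusted p = 0.00156). Sagunja low had 4.88, 13.1 and 13.9 CPM, and without the first of these the value was 0.40 ± 0.09 (adjusted p = 0.0037). Sagunja medium, with 13.2, 13.3 and 14.3 CPM, overlapped with vehicle.

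Apart from Sagunja low, Cinnamon high had the lowest mean TGFA, with 11.0, 10.0 and 11.2 CPM (11.15 in the third). All 3 libraries lay below vehicle, a comparison in which 46.9% of all tested genes did not overlap. The log2 fold change over vehicle was -0.32 ± 0.16 (adjusted p = 0.149), and -0.33 ± 0.09 (adjusted p = 0.00236) without Sagunja low replicate 1. Cinnamon high was also lower than Astragalus high, which had 13.5, 14.5 and 14.9 CPM (13.45 in the first), with a log2 difference of -0.41 ± 0.16 (adjusted p = 0.0477). That call held in only 17 of 54 fits that each left out 1 library (adjusted p up to 0.141), and without Sagunja low replicate 1 its adjusted p was 0.00014. It was lost with the replicate block within a set (adjusted p = 0.0511). Sagunja high was higher than Samul high (12.58 and 12.54 CPM) by 0.50 ± 0.17 with all libraries (adjusted p = 0.0702), and by 0.49 ± 0.09 without Sagunja low replicate 1 (adjusted p = 8.66e-05). The other 15 extract groups with replicates had means of 12.3 to 14.3 CPM, beside 13.4 ± 0.694 CPM in vehicle (SD, n = 3). Single Paeonia libraries had 12.8, 11.6 and 11.1 CPM at the low, medium and high dose, and those of Angelica 13.8 to 14.1 CPM.

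AREG encodes amphiregulin, a ligand that signals through EGFR. It had a count of 1 in 4 libraries and 0 in the other 56, and was not tested. The 4 libraries were single ones of vehicle, Cinnamon high, Astragalus low and Paeonia low. A count of 0 allows up to 3 counts, which is 0.0996 to 0.156 CPM over the 60 libraries and covers counting error only. EREG, nearby on chromosome 4, was counted in all 60 libraries.

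**Figure D3:**
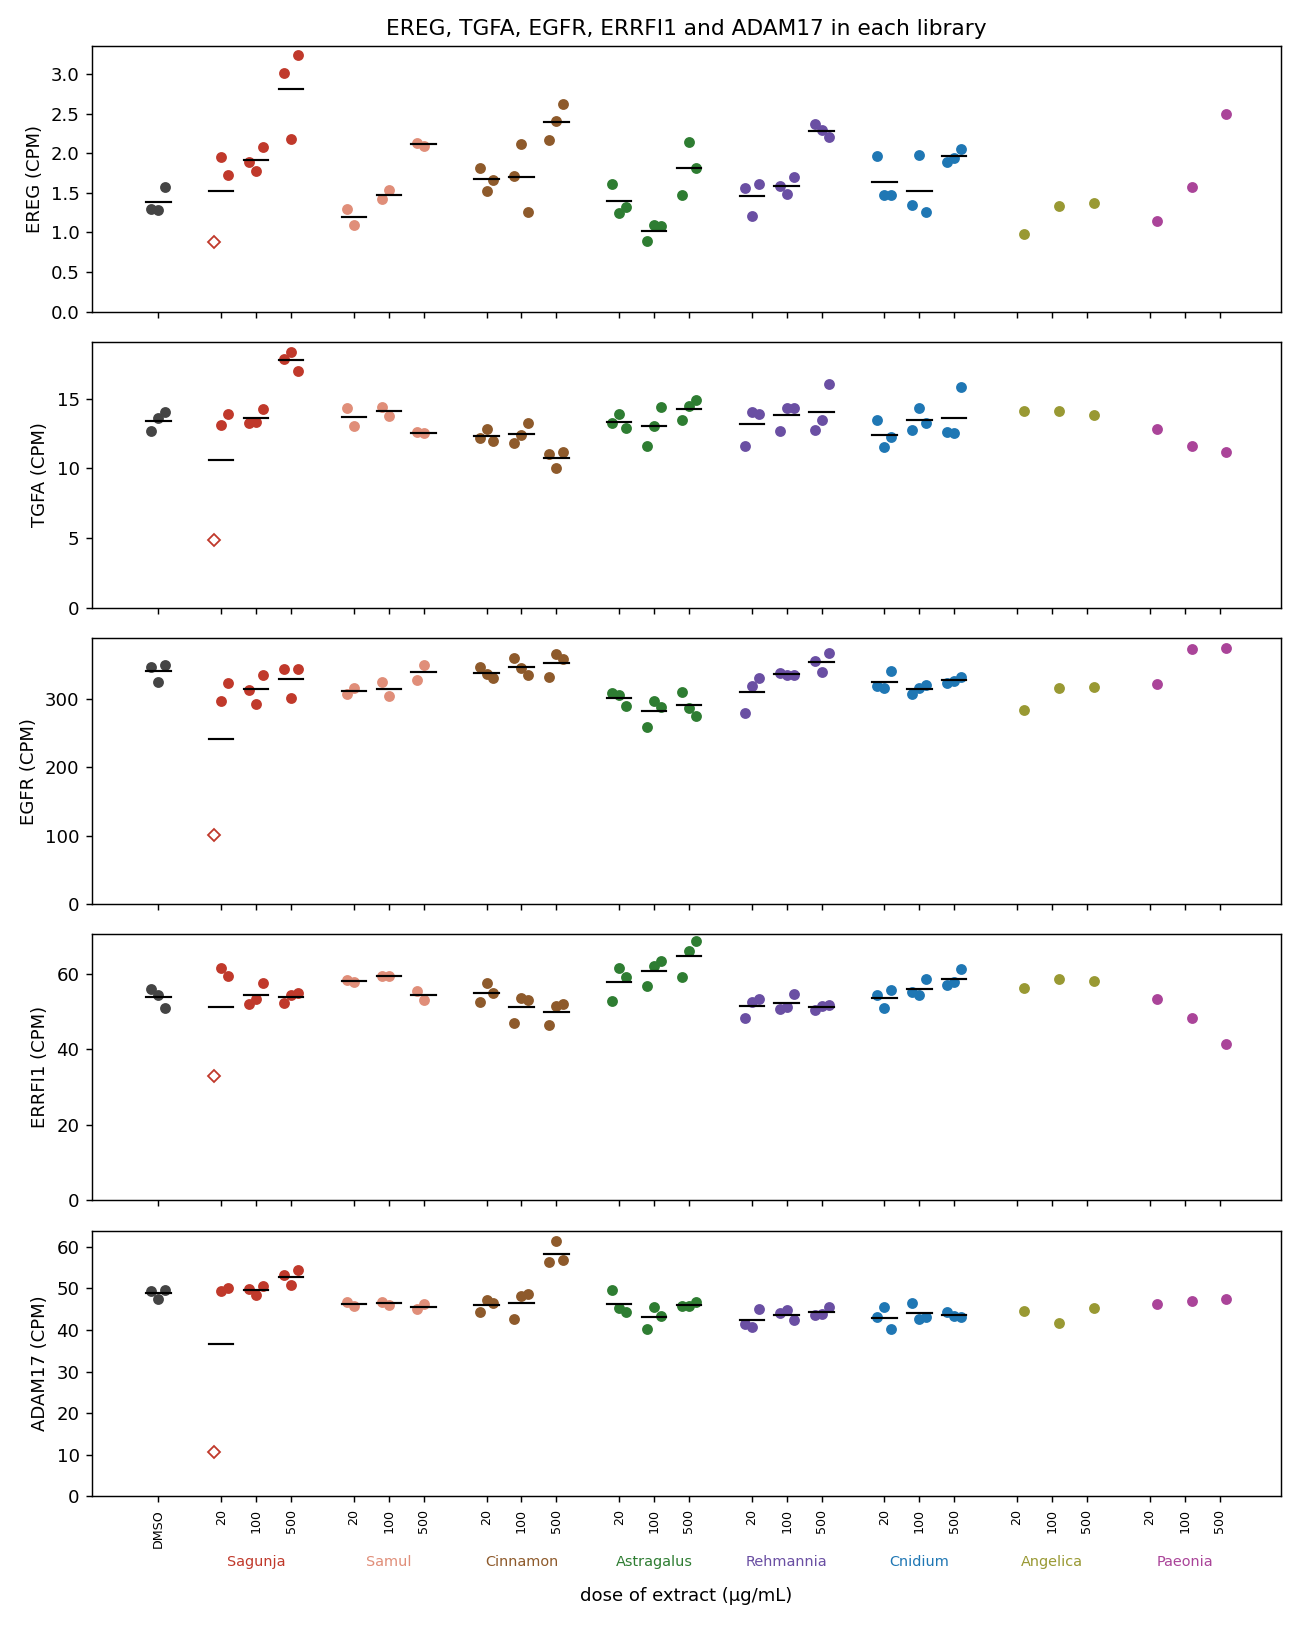
CPM (linear axes) of EREG, TGFA, EGFR, ERRFI1 and ADAM17 in each library by group, doses from low to high within an extract; points are libraries, bars group means, and open diamonds Sagunja low replicate 1. EREG is highest at the high doses (2.81 CPM in Sagunja high), TGFA at Sagunja high (17.7 CPM) and ADAM17 at Cinnamon high (58.2 CPM), and the open diamonds lie far below the rest for TGFA, EGFR, ERRFI1 and ADAM17.

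EGFR, the receptor itself, lay between 259.8 and 375.5 CPM in all libraries but Sagunja low replicate 1. Cinnamon high had 332, 366 and 359 CPM and vehicle 347, 326 and 350 CPM, with a log2 fold change of 0.05 over vehicle (95% interval -0.28 to 0.38). Sagunja low had 102, 298 and 323 CPM, and its call against vehicle (-0.50 ± 0.17, adjusted p = 0.0292) rested on replicate 1: without it the value was -0.15 (adjusted p = 0.106). The call was also lost without vehicle replicate 1 or 3. The same holds for Sagunja high over low, 0.45 with all libraries (adjusted p = 0.0492) and 0.09 without that library (adjusted p = 0.496), a call that held in 5 of 54 fits leaving out 1 library.

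Astragalus libraries had the lowest EGFR among the remaining groups with replicates. They had 309, 306 and 290 CPM at the low, 260, 298 and 289 (288.5) at the medium, and 310, 287 and 276 CPM at the high dose, all below the 3 vehicle libraries. Of all tested genes, 37.3%, 33.7% and 27.1% did not overlap with vehicle at the low, medium and high dose. With all libraries the EGFR differences did not pass (log2 fold changes -0.18, -0.27 and -0.23, adjusted p = 0.43 to 0.655). Without Sagunja low replicate 1 the values were -0.19, -0.28 and -0.24, and all 3 were called lower (adjusted p = 0.0177, 0.000447 and 0.00263). In that fit EGFR was also 0.27 log2 units higher in Cinnamon high than in Astragalus high (adjusted p = 9.31e-05) and 0.20 higher at the high than at the low dose of Rehmannia (adjusted p = 0.0377). Rehmannia had 280, 319 and 331 CPM at the low, 339, 335 and 335 (335.1) at the medium, and 356, 340 and 368 CPM at the high dose. EGFR has the longest exon length of the members (12521 bases). Deviations from fellow replicates ran against exon length in Rehmannia low replicate 1 (280 CPM, Spearman rho -0.39) and Astragalus medium replicate 1 (260 CPM, -0.40). In Astragalus high the rho was -0.09 to 0.04. The part of exon length in these EGFR differences was not tested. The highest single values were those of Paeonia, with 322, 374 and 376 (375.5) CPM at the low, medium and high dose. No neighbouring pair of the 19 replicated groups in order of EGFR was separated, as all 18 pairs overlapped. The labels do not state whether counting used strand, so reads of EGFR and of its antisense gene EGFR-AS1 may not be separated.

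ERRFI1, also known as MIG6, was highest in the extract with the lowest EGFR. Astragalus high had 59.3, 66.2 and 68.7 CPM, and vehicle 55.9, 54.45 and 51.0 CPM, with no overlap. In that comparison 27.1% of all tested genes did not overlap. The log2 fold change of Astragalus high over vehicle was 0.27 ± 0.11 with all libraries (adjusted p = 0.176) and 0.26 ± 0.06 without Sagunja low replicate 1 (adjusted p = 0.00143). Astragalus medium, with 56.7, 62.0 and 63.6 CPM (63.55), was likewise called higher without that library (0.17, adjusted p = 0.0468). Cinnamon high had 46.5, 51.5 and 51.9 CPM and did not overlap with Astragalus high, a log2 difference of -0.37 ± 0.11 (adjusted p = 0.00709). Between Cinnamon high and Astragalus high, 43% of all tested genes did not overlap. The dose effect of Cinnamon minus that of Astragalus was -0.31 ± 0.08 without Sagunja low replicate 1 (adjusted p = 0.00364), and -0.30 with it (adjusted p = 0.193). Paeonia had 53.3, 48.3 and 41.5 CPM at the low, medium and high dose, and Angelica 56.2 to 58.6 CPM. Sagunja low replicate 1 had 32.9 CPM and its fellow replicates 61.6 and 59.4 CPM. All 18 neighbouring pairs of groups in order of ERRFI1 overlapped.

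**Figure D4:**
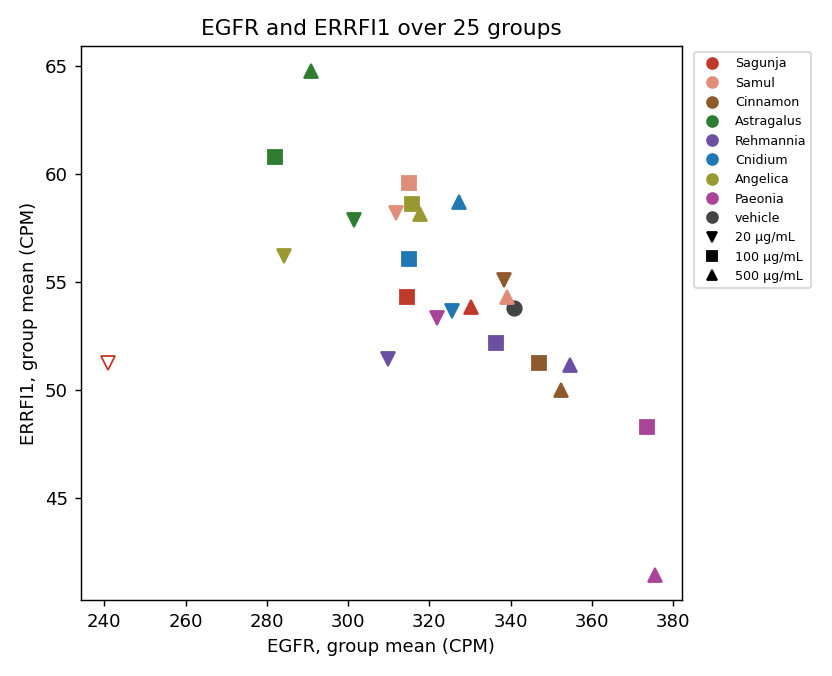
Mean ERRFI1 against mean EGFR, both in CPM on linear axes, for 25 groups; each point is a group, and the open triangle is Sagunja low. Groups with more EGFR tend to have less ERRFI1 (Pearson r of the log2 values -0.53 over all 25 groups, -0.80 over 24 without Sagunja low), with Astragalus at one end and Paeonia high at the other.

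Over the means of all 25 groups, EGFR had a Pearson r of log2(CPM + 0.5) of 0.57 with ADAM17 and -0.53 with ERRFI1. Without Sagunja low, a choice made after seeing the data, these were 0.35 and -0.80 over 24 groups. The points share libraries, scaling and extract sets, and the values are a description without a test. HBEGF and TGFA had r = 0.63 over the 24 groups (0.49 over 25), EGFR and EREG 0.62 (0.52), TGFA and ERRFI1 0.53 (0.54) and EREG and ADAM17 0.52 (0.46). HBEGF showed hardly any relation to EGFR (-0.05, and -0.15 over 25).

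ADAM17 encodes the protease that releases TGFA, HBEGF, EREG and AREG from the membrane. Cinnamon high had 56.4, 61.4 and 56.75 CPM, above every library of any other group, and vehicle had 49.3, 47.6 and 49.6 CPM. Of all tested genes, 46.9% did not overlap between Cinnamon high and vehicle, and 41.6% between Cinnamon high and low. How many genes set Cinnamon high apart from every other library was not counted. The log2 fold change of Cinnamon high was 0.25 ± 0.20 over vehicle (adjusted p = 0.411) and 0.34 ± 0.20 over its low dose (adjusted p = 0.252). With the fit freed of Sagunja low replicate 1, which had 10.7 CPM for ADAM17 where its fellows had 49.3 and 50.2, the errors shrank. The values became 0.24 ± 0.05 (adjusted p = 0.000169) and 0.34 ± 0.05 (adjusted p = 5.62e-07), and Cinnamon high was 0.33 higher than Astragalus high (adjusted p = 5.48e-07). Of all genes, 35.9% (over vehicle), 35.9% (over the low dose) and 41.3% (over Astragalus high) were called in that fit. In the same fit Sagunja high (53.2, 50.8 and 54.4 CPM) was 0.21 higher than Samul high, with 45.0 and 46.3 CPM (adjusted p = 0.0071, 17.6% of all genes called). ADAM17 was lower than vehicle there in Astragalus medium (-0.19), Rehmannia low (-0.21), Cnidium high (-0.17) and Cnidium low (-0.19), with adjusted p of 0.00912 to 0.0383. With all libraries in the fit edgeR called 0 of its 18 comparisons with vehicle, with 0 at an unadjusted p under 0.05, and DESeq2 also called 0.

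Among other genes of the pathway, the EGFR ligand epigen (EPGN) was higher at the high dose of 3 extracts than in vehicle. Its mean was 2.56, 4.05 and 6.63 CPM at the low, medium and high dose of Cinnamon, 2.51, 3.36 and 4.73 CPM for Rehmannia, 2.21, 2.68 and 4.70 CPM for Samul, and 2.54, 2.08 and 1.89 CPM for Astragalus, beside 2.30 ± 0.178 CPM in vehicle (SD, n = 3). EPGN rose against vehicle in Cinnamon high (log2 fold change 1.52 ± 0.20, adjusted p = 1.23e-07), Rehmannia high (1.04 ± 0.20, adjusted p = 0.00171) and Samul high (1.03 ± 0.22, adjusted p = 0.003345). It was higher in Cinnamon high than in Astragalus high by 1.81 ± 0.20 (adjusted p = 2.88e-09). 6 of the 7 other EGF-family ligands were tested (all but NRG3), and NRG1, a ligand of ERBB3 and ERBB4, was lower in Cinnamon high than in vehicle (-0.37, adjusted p = 0.0165). Of the other ErbB receptors only ERBB2, the partner that binds no ligand, passed the filter, and it was lower in Sagunja high than in vehicle (-0.28, adjusted p = 0.00116).

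At the high doses, 11.8% of all tested genes were called higher and 10.9% lower than vehicle for Cinnamon, and 8.94% higher and 8.11% lower for Sagunja. The shares were 2.39% and 2.07% for Astragalus, 1.37% and 0.999% for Rehmannia, 0.851% and 0.502% for Cnidium, and 2.28% and 1.85% for Samul. Among 10 shedding proteases and their partners, 3 rose and 1 fell in Cinnamon high (22.8% of all genes called, median log2 fold change 0.07, against 0.00 over all genes) and 2 rose and 2 fell in Sagunja high (17.1% called, median 0.10, against 0.02). TIMP3, the tissue inhibitor of ADAM17, fell in Cinnamon high (-0.49 ± 0.07, adjusted p = 1.64e-07), Samul high (-0.27, adjusted p = 0.0243) and Astragalus high (-0.23, adjusted p = 0.0274). RHBDF2, which carries ADAM17 to the cell surface, rose in Cinnamon high (0.30, adjusted p = 0.00395), and the rhomboid protease RHBDL2 rose in Cinnamon high (0.49) and Sagunja high (0.77). ADAM12, a metalloprotease known to cut HBEGF, was lower in Sagunja high (-0.39 ± 0.09, adjusted p = 0.00147). Of 19 adaptors and signal transducers, 3 rose in Cinnamon high (GAB1, MAP2K1 and MAPK3, by 0.56, 0.36 and 0.29), 3 fell in Sagunja high (SHC1, STAT3 and GRB2, with -0.32, -0.20 and -0.15), beside 22.8% and 17.1% of all genes called, and the list medians were 0.02 and 0.03. At the other 4 high doses at most 1 gene of the protease list and 1 of the adaptor list was called in either direction. All calls of other pathway genes come from the fit with all libraries. Without Sagunja low replicate 1 more of all genes were called, 35.9% for Cinnamon high, 30.9% for Sagunja high and 13.4% for Samul high, so the list counts may differ there.

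Of 14 genes of receptor restraint and trafficking, 2 rose and 2 fell in Cinnamon high, where 22.8% of all genes were called, and 1 rose and 1 fell in Sagunja high (17.1%). LRIG1, a transmembrane protein that promotes EGFR degradation, rose in Cinnamon high (0.59 ± 0.09, adjusted p = 4.085e-06) and in Samul high (0.40, adjusted p = 0.0156). The phosphatase PTPRJ (-0.63, adjusted p = 4.91e-05) and the deubiquitinase USP8, which spares EGFR from degradation (-0.53, adjusted p = 8.21e-10), fell in Cinnamon high. Of 15 ERK-responsive transcripts, 4 rose and 2 fell in Cinnamon high and 5 rose and 1 fell in Sagunja high, with medians of -0.02 and 0.02, beside 11.8% of all genes higher and 10.9% lower in Cinnamon high and 8.94% and 8.11% in Sagunja high. In Astragalus high 1 rose and 2 fell, in Rehmannia high 2 rose and 1 fell, and in Cnidium and Samul high 2 rose each. Of the ERK-responsive calls that of IER3 in Sagunja high was the largest, with 14.7 ± 0.151 CPM against 1.84 CPM in vehicle (log2 fold change 2.99 ± 0.16, adjusted p = 2.11e-18). EGR1 rose in 5 of the 6 high doses, all but Sagunja, and averaged 43.5 ± 7.34 CPM in Samul high (SD, n = 2) and 18.9 ± 1.88 CPM in vehicle (SD, n = 3). PHLDA1, also called in 5 of 6, was higher at the high than at the low dose of all 6 extracts (0.27 to 0.48). The Sprouty genes split in Cinnamon high, where SPRY2 rose (0.48) and SPRY4 fell (-0.72).

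Outside the pathway, the genes whose group means followed each member most closely over 25 groups were taken among genes with a mean of at least 5 CPM. For EGFR the closest was SSH1 (Pearson r 0.953, and 0.929 over 24 groups without Sagunja low), a cofilin phosphatase, followed by ATP2B4 (0.898) and HIPK2 (0.889). Over the 24 groups ARNT2 (0.898) and HAS3 (0.875) took the places of ATP2B4 and HIPK2. For HBEGF it was SH3RF2 (0.871), followed by HDGFL3 (0.863) and the chemokine CCL2 (0.841), while over 24 groups the ubiquitin ligase SMURF2 came first (0.935). LPXN (0.831), the protease ADAMTS1 (0.815) and CFLAR (0.813) came first for EREG in both sets of groups. SCML1 (0.791), DCBLD2 (0.788) and CDH2 (0.768) came first for TGFA over 25 groups and the cytokine IL11 (0.834) over 24. SSX2IP (0.867), the kinase CDK14 (0.833) and PAPSS2 (0.826) came first for ERRFI1, and FEM1C (0.921), ZBTB21 (0.875) and ELOVL6 (0.86) for ADAM17, with ELOVL6 (0.912) first over 24 groups.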

How the data were processed

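The deposited table holds expected counts per gene for 279 columns, 60 of them from these samples, and the remaining 219 were left aside. Per the submitters' processing notes, the genome was hg38 (GRCh38) and the tools included RSEM 1.3.3, STAR 2.7.3a, FastQC 0.11.9 and Trim Galore 0.6.5, with no annotation release given there. Per the labels' protocols the libraries were directional mRNA libraries, and the strand setting of the counting is not stated. Of the deposited expected counts, 90.67% were whole (tolerance 1e-09), and they were rounded to whole numbers. Gene positions come from GENCODE release 29, which located 57055 of 60675 genes, and 56558 had a symbol.

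The 7 genes and all gene lists were chosen with earlier results of these data known. Samples were grouped by the labelled extract and dose. 54 libraries in 19 groups entered 1 fit with edgeR 4.0.16 (R 4.3.3, TMM scaling, filterByExpr, robust quasi-likelihood test), with 35 residual degrees of freedom. TMM factors were 0.936 to 1.028. Angelica and Paeonia, with 1 library per dose, were not tested. There were 18 comparisons with vehicle, 12 within an extract, 3 between extracts of the same set and 3 contrasts of the dose effects of 2 extracts. P-values were adjusted by Benjamini-Hochberg over 17516 genes within each comparison, and 95% intervals are 1.96 SE on each side. CPM were computed here, per 1000000 counts of the TMM-scaled library total. With library totals of 20604748 to 29609771, relative counting error was largest for EREG (at most 81 counts in a library) and next for TGFA (at most 439).

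Named were all 7 genes, from each pathway list up to 3 genes with the largest called change at a high dose and at least 1 CPM, and for each tested gene the 3 genes of at least 5 CPM whose log2(CPM + 0.5) group means correlated best. Other genes named from the lists were chosen after their values were seen. Tested on counts simulated for Cinnamon high over vehicle (17227 genes tested), the test called 14%, 74%, 100% and 100% of genes changed 1.25-, 1.5-, 2- and 4-fold. The simulated counts held no library that stood apart. These shares therefore do not apply to genes whose errors Sagunja low replicate 1 widened, such as TGFA, EGFR and ADAM17. Alternatives were other scalings, no filter, DESeq2 1.42.0, the replicate block, the compared groups alone and leaving out each library. Replicate numbers are shared across groups, but same-numbered libraries had deviations correlated at -0.22 to 0.36, and every pair exceeded 0.1 in 1 comparison, Cinnamon medium over low, where the block changed no call of the 6 genes. No 2 replicates agreed within sampling noise: the scatter between them was 1.35 to 89.9 times that of counting (51 pairs).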

Additional observations from a re-analysis of the deposited data

Results flagged for a closer look

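The dose effect on HBEGF differed between Cinnamon and Astragalus, 2 extracts of the same sample set. The log2 fold change of the high over the low dose was -0.28 for Cinnamon (adjusted p = 0.000441) and 0.20 for Astragalus (adjusted p = 0.217). The difference of these dose effects was -0.47 ± 0.08 (SE, adjusted p = 4.88e-05, edgeR quasi-likelihood test). All 3 Cinnamon high libraries (25.4, 26.3 and 29.01 CPM) lay below the 3 of Cinnamon low, and all 3 Astragalus high libraries (37.1, 34.0 and 33.9 CPM, 33.95 in the second) lay above the 3 of Astragalus low. Between high and low dose, 41.6% of all tested genes did not overlap for Cinnamon and 14.5% for Astragalus.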

How the results depend on the processing

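No result changed its direction while called. The 20 calls of the 6 genes against vehicle became 37 with the compared groups alone in the fit, and 18 to 32 when 1 library was left out. The 32 came without Sagunja low replicate 1. The 6 calls of high against low dose became 4 to 9 with 1 library left out. The 0 calls of medium against low became 3 with no filter on low counts, 1 with DESeq2, and 0 to 4 with 1 library left out. The 4 calls between extracts became 7 with no filter and 8 with the compared groups alone, and 3 to 8 with 1 library left out. The 1 call in the difference of dose effects became 3 with no filter, 3 with the compared groups alone, 2 with DESeq2, 2 with the replicate block and 2 with the replicate block within a set, and 1 to 4 with 1 library left out. For all genes called, summed over the comparisons with vehicle, the number was 17203, then 45595 with the compared groups alone and 10345 (without vehicle replicate 1) to 36701 (without Sagunja low replicate 1). For all genes called, summed over high against low dose, it was 7726, and 5702 to 12050 (without Sagunja low replicate 3). The cause of these shifts was not tested. With the replicate block there were 21 calls against vehicle and 6 of high against low. With the block within a set, 2 calls were lost, EREG in Cinnamon high over low (adjusted p = 0.0568) and TGFA in Cinnamon over Astragalus (0.0511), and 1 was gained, TGFA in Sagunja minus Samul dose effects (0.0479). With library size alone as the scaling, the share of higher calls over all genes was 79% in place of 55.2% for Samul high and 82.9% in place of 57.8% for Rehmannia high. The fit with no filter was run without the robust option. EREG, with at most 81 counts in a library, is limited by depth, and AREG was not detectable at this depth in 56 libraries. The relation of group means without Sagunja low was added after seeing the data.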
